A study of Mus musculus with 15 samples.

Results

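A set of 10 genes of the hepatic acute phase and of liver inflammation was followed through thyroid hormone excess and its withdrawal in mouse liver. Saa1, Saa2, Hp, Hpx, Orm1, Lcn2, Cp, Cxcl1, Cd14 and Anxa3 were taken by symbol, and a probe was used if at least 3 of the 15 arrays detected it (detection p-value under 0.01). The members had 18 probes, all 18 passed, and all 10 genes were among the 8976 genes tested. Each array held 45281 probes and read total RNA of whole liver from male C57BL/6 mice, 8 weeks old, kept on a 12 h light and dark cycle with free access to food and water.

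There were 5 groups of 3 arrays, run as 2 experiment subsets. Livers labelled acute T3 were taken 6 h after 1 intraperitoneal injection of L-T3 (liothyronine, the active thyroid hormone), and their comparator was the untreated baseline A. Livers labelled chronic T3 were taken 6 h after the last of 14 daily injections, those labelled T3 withdrawal 10 days after the 14th, and the comparator of both was the untreated baseline B. The dose was 20 µg per 100 g of body weight in every injected group. No group is described as injected without T3, so effects of T3 and of injection cannot be told apart. The labels do not say that each array is a separate animal, so the errors and p-values measure the spread between these arrays, which may be technical.

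The acute phase response is the change in liver secretion that follows infection or tissue injury. Cytokines such as interleukin-6 and interleukin-1, many of them released by liver macrophages (Kupffer cells), act on hepatocytes through STAT3, NF-kappa B and C/EBP factors, and the hepatocyte then makes more serum amyloid A, haptoglobin, hemopexin, orosomucoid and ceruloplasmin. Thyroid hormone acts on hepatocytes through nuclear receptors, and of 6 hormone-responsive genes listed, 3 rose in acute T3 livers against baseline A and 4 in chronic T3 livers against baseline B. Klf9 and Me1 were called in neither comparison, and Hr (a nuclear corepressor) was not called after acute T3. Dio1 (deiodinase) and Gpd2 (mitochondrial glycerol phosphate dehydrogenase) were higher by 1.44 and 1.60 on the log2 scale in acute T3 livers than in baseline A and by 1.54 and 1.57 in chronic T3 livers than in baseline B (limma adjusted p = 0.0176, 0.0124, 0.00171 and 0.00177).

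The promoters of 4 members are shown because these 4 of the 10 had the widest spread between arrays of a group. Of the 10 members, 6 were taken from RefSeq's promoter table (build GRCm38.p6). The promoters of Hp, Orm1, Anxa3 and Cd14 were not searched. The 250 bases before the gene start are given 5′ to 3′ on the gene's strand. Capitals mark the C/EBP-type motif TTGCNNAA in Saa1, Saa2 and Lcn2, and the NF-kappa B consensus in Cxcl1, where matches on both strands overlap by all but 1 base on each side. Saa1 lies at chr7:46742981-46743230 on the minus strand, Saa2 at chr7:46751583-46751832 on the plus strand, Lcn2 at chr2:32387740-32387989 on the minus strand and Cxcl1 at chr5:90890995-90891244 on the plus strand.
Saa1: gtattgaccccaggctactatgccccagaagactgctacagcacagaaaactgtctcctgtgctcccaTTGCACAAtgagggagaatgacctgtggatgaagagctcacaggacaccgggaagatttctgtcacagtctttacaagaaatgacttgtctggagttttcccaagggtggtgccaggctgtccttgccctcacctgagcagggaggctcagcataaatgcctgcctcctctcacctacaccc
Saa2: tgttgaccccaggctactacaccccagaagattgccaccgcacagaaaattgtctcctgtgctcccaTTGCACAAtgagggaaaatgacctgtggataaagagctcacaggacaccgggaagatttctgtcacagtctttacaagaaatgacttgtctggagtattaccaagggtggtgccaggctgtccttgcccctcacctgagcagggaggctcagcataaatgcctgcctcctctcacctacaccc
Lcn2: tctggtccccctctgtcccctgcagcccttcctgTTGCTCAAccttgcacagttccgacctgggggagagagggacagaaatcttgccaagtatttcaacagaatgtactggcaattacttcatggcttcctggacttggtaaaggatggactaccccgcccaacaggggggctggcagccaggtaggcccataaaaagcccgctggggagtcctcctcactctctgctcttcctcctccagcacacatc
Cxcl1: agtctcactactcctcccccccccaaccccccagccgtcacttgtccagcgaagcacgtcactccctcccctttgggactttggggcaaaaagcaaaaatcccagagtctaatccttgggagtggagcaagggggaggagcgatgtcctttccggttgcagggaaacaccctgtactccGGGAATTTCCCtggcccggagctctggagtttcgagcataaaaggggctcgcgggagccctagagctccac
The Saa1 and Saa2 windows matched at 238 of 251 aligned positions (94.8%), and their gene starts lie 8853 bases apart on opposite strands. The other pairs among the 4 windows matched at 47.9% to 53.5% of aligned positions. Saa1 and Saa2 are near-identical copies in their coding parts too, so a probe named for one may read part of the other. Searched on both strands in the same window, TTGCNNAA was present in 9.57% of 32817 promoters and in Saa1, Saa2, Lcn2, Hpx and 1 of the 2 Cp promoters. The NF-kappa B consensus was present in 7.25% of promoters and in Cxcl1 alone of the 6 members, and the STAT-type motif TTCNNNGAA, present in 7.01%, was in none of them.

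Levels are given as normalized log2 signal and are compared only within a probe. Mean raw signal per array ranged from 435 to 697, and 11049 to 14679 probes per array were detected at a detection p-value under 0.01. The lowest mean raw signals, 435 and 438, were those of chronic T3 replicates 3 and 2, and the next lowest was 525 (baseline B replicate 1). A difference is the mean log2 level of the first-named group minus that of the second, with its standard error, and a gene is said to have risen or fallen where limma's adjusted p, taken over all 8976 genes, was under 0.05. With 3 arrays a group an exact permutation test cannot go below p = 0.1, so single genes were tested with limma alone.

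After 14 days of T3 the members split by size and by direction. Hp, Cp, Lcn2, Cd14 and Anxa3 rose and Cxcl1 fell against baseline B, while Saa1, Saa2, Orm1 and the brightest Hpx probe did not pass the test. Thus 6 of 10 members were called, against 22.9% of all genes tested (12.4% higher and 10.5% lower). The median difference of the 10 members was 0.66, against 0.025 over all genes. In 7 of the 10 members, each read by its brightest probe, the 3 chronic T3 arrays did not overlap the 3 baseline B arrays. This held for 35.3% of all genes (18.9% higher and 16.4% lower).

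**Figure D1:**
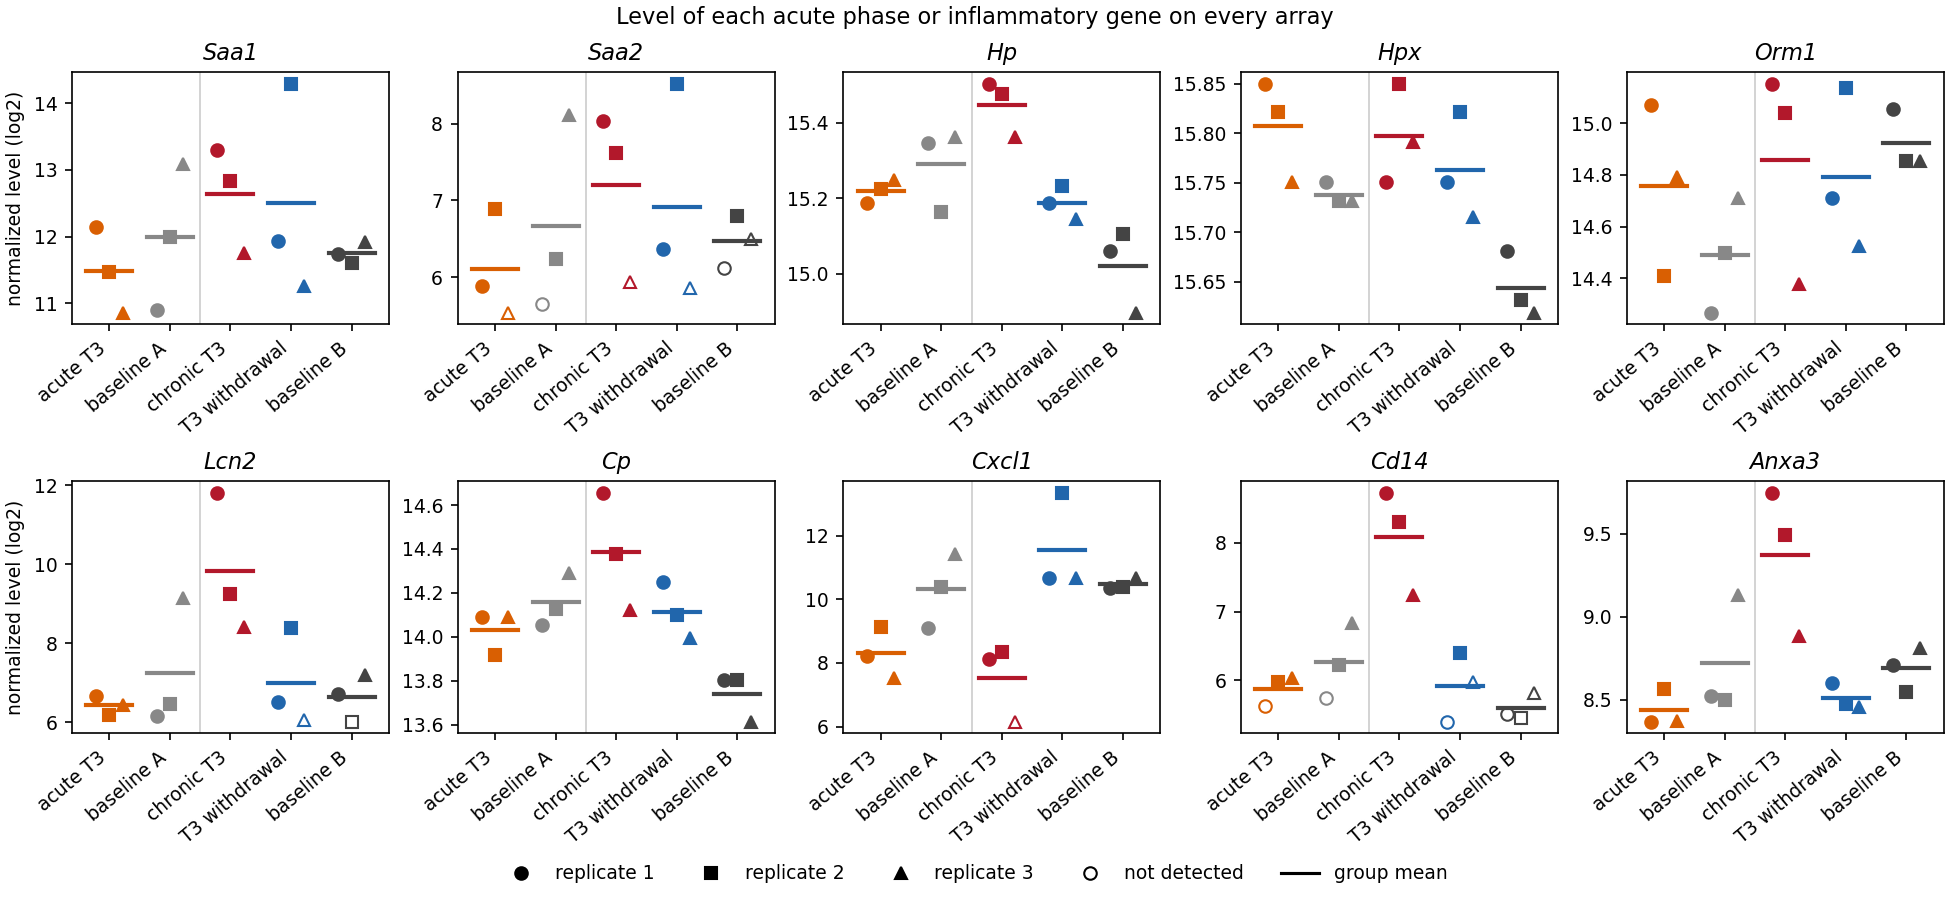
Normalized log2 level (y axis, a separate scale for each gene) of the 10 genes on each of the 15 arrays, by group (x axis). Symbols give the replicate, open symbols an array on which the probe was not detected, and bars the group mean of 3 arrays. The chronic T3 arrays lie above all baseline B arrays for Hp, Hpx, Lcn2, Cp, Cd14 and Anxa3 and below them for Cxcl1, and overlap them for Saa1, Saa2 and Orm1.

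Hp encodes haptoglobin, which binds free haemoglobin in plasma. Its brightest probe read 15.50, 15.48 and 15.36 on the chronic T3 arrays, against 15.06, 15.10 and 14.90 on the baseline B arrays. All chronic T3 arrays were above all baseline B arrays, by a narrow margin on the log2 scale: the difference was 0.43 ± 0.10 (SE), a 1.34-fold change (adjusted p = 0.00884). The other 2 Hp probes gave differences of 0.69 ± 0.35 and 0.62 ± 0.32 with adjusted p = 0.187 and 0.205 when each probe was tested. Those 2 probes ordered the arrays differently from the brightest one, with baseline B replicate 2 within the range of the chronic T3 arrays at 14.31 and 14.40. With arrays scaled by their medians, the brightest probe's difference was 0.30 (adjusted p = 0.222).

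Cp encodes ceruloplasmin, the copper-carrying ferroxidase of plasma. Its brightest probe read 14.66, 14.38 and 14.12 in chronic T3 livers, against 13.80, 13.80 and 13.61 in baseline B livers. The groups did not overlap and Cp rose by 0.64 ± 0.14, a 1.56-fold change (adjusted p = 0.00565). Of the other 3 Cp probes, the dimmest, designed to a different transcript record, was also higher (0.94 ± 0.23, adjusted p = 0.0119, detected on 1 of 3 baseline B arrays), and the remaining 2 gave 0.19 ± 0.19 and 0.27 ± 0.12 and were not called (adjusted p = 0.509 and 0.143).

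Hpx encodes hemopexin, the plasma scavenger of heme, and its 2 probes disagreed on whether it changed. The brighter probe had a raw signal between 51202 and 61912 on the 15 arrays, while the highest signal of any probe per array was between 59194 and 62812, so it read close to the top of the scale. On it, chronic T3 livers had 15.75, 15.85 and 15.79 and baseline B livers 15.68, 15.63 and 15.62, a difference of 0.15 ± 0.09 (adjusted p = 0.236) in groups that did not overlap. The dimmer probe, at most 43234 in raw signal, read 15.48, 15.22 and 15.03 in chronic T3 livers against 14.41, 14.50 and 14.37 in baseline B livers. On that probe Hpx was higher in all chronic T3 arrays, by 0.81 ± 0.16 (adjusted p = 0.00399 with each probe tested). It was lower in T3 withdrawal than in chronic T3 livers by the same probe (-0.61 ± 0.16, adjusted p = 0.0233). The Hp probe, with raw signals up to 44814, and the Hpx probe had array-to-array SDs of 0.080 and 0.043 on the log2 scale, smaller than the median gene's 0.23, while the other Hp probes had 0.44 and 0.47 and the dimmer Hpx probe 0.19.

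**Figure D2:**
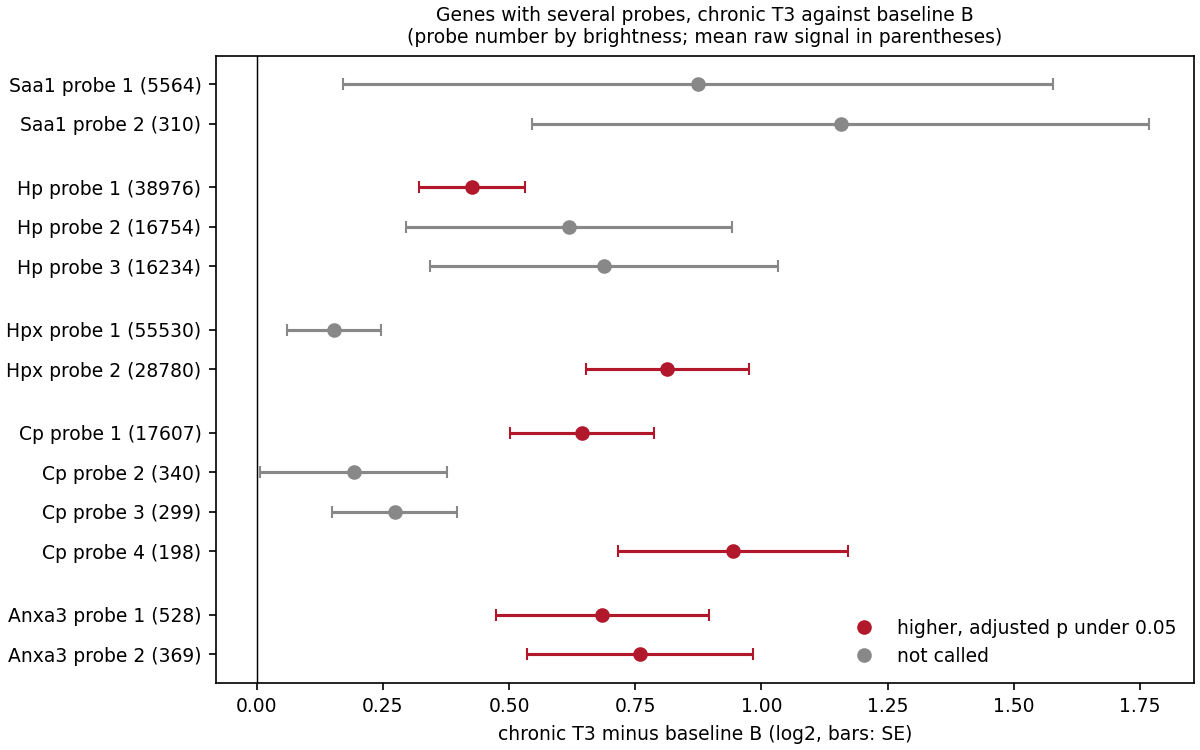
Log2 difference of chronic T3 minus baseline B (x axis) for each probe of the 5 members with several probes (y axis), with bars of 1 SE. Probes are numbered by brightness, with the mean raw signal in parentheses. Of the 2 Hpx probes the dimmer one passed the test (0.81) and the brighter one did not (0.15), while both Anxa3 probes passed.

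Saa1 and Saa2 encode the serum amyloid A proteins, the most inducible acute phase proteins of mouse liver, and Orm1 encodes orosomucoid. Saa1 read 13.31, 12.84 and 11.75 in chronic T3 livers, against 11.74, 11.61 and 11.92 in baseline B livers. Replicates 1 and 2 of chronic T3 were above every baseline B array and replicate 3 was within their range, so the groups overlapped. The difference of 0.87 ± 0.70 had a 95% interval of -0.64 to 2.39 (adjusted p = 0.407), which includes a 1.83-fold higher mean as well as no difference. Its dimmer second probe gave 1.16 ± 0.61 (adjusted p = 0.211). Saa2, detected on 9 of 15 arrays, showed the same order of the chronic T3 arrays at 8.03, 7.62 and 5.94, the last not detected, against 6.12, 6.79 and 6.50 in baseline B, of which only the second was detected. The Saa2 difference of 0.73 ± 0.75 was not called (adjusted p = 0.531). Orm1 stood at 15.15, 15.04 and 14.38 in chronic T3 livers and at 15.05, 14.86 and 14.86 in baseline B livers, with overlapping groups and a difference of -0.06 ± 0.23 (95% interval -0.56 to 0.43).

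Lcn2 encodes lipocalin-2, a secreted protein that binds bacterial siderophores and is made by hepatocytes in the acute phase and by neutrophils. It read 11.82, 9.25 and 8.41 in chronic T3 livers, against 6.71, 6.02 and 7.19 in baseline B livers, where the second array did not detect it. In raw signal these were 4156, 480 and 309 against 173, 153 and 240. All chronic T3 arrays were above all baseline B arrays, and replicate 1 was far above the others of its group. Lcn2 rose by 3.18 ± 0.89, a 9.08-fold difference of means (adjusted p = 0.0225). Without chronic T3 replicate 1 the difference was 2.19 (adjusted p = 0.0856), and without baseline B replicate 1 or 2 it was 3.22 or 2.87 (adjusted p = 0.0521 and 0.0693).

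Most neutrophil markers were detected on few or no arrays, the exceptions being S100a8 (12 of 15 arrays) and S100a9 (11 of 15). Each of these was detected on 2 chronic T3 arrays and 1 baseline B array. Of the 15 neutrophil markers listed, 2 were detected often enough to be tested: S100a8 differed by 1.32 ± 0.63 and S100a9 by 0.24 ± 0.50 between chronic T3 and baseline B (adjusted p = 0.156 and 0.771). Their summed normalized signal was 61.8 to 384 on the chronic T3 arrays and 69.3 to 215 on the baseline B arrays. Of the other 12 on the array, Ngp, Mpo, Retnlg, Cxcr2, Mmp8, Mmp9, Stfa2 and Chil3 were detected on 0 of 15 arrays, Camp, Ltf and Elane on 1 each and Csf3r on 2, of which 1 was a chronic T3 array.

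Cxcl1, a chemokine that draws neutrophils and a target of NF-kappa B, moved the other way. It read 8.11, 8.34 and 6.16 in chronic T3 livers, the last array below detection, against 10.37, 10.39 and 10.67 in baseline B livers. In raw signal that was 441, 299 and 141 against 1124, 1319 and 1710. Every chronic T3 array was below every baseline B array, and Cxcl1 fell by 2.94 on the log2 scale (SE 0.78), a 7.67-fold lower mean (adjusted p = 0.0168). Without chronic T3 replicate 3 it was lower by a difference of -2.25 (adjusted p = 0.0583), and without baseline B replicate 3 by -2.84 (adjusted p = 0.0536).

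Cd14, the lipopolysaccharide co-receptor of macrophages, and Anxa3, an annexin of myeloid cells, rose together with markers of liver macrophages. Cd14 read 8.73, 8.30 and 7.24 in chronic T3 livers and 5.50, 5.46 and 5.82 in baseline B livers, where no array detected it. It was therefore at least 3.12-fold higher in chronic T3 livers under the main background correction (adjusted p = 0.000462). For this bound each baseline B array was set to the higher of its lowest detected signal and the Cd14 signal. The fitted log2 difference in Cd14 was 2.50, and 1.33 to 2.92 over the alternative settings. Anxa3 read 9.75, 9.49 and 8.88 in chronic T3 livers, against 8.71, 8.55 and 8.81 in baseline B livers. Its groups did not overlap, by a margin of less than the spread within chronic T3, and the difference was 0.68 ± 0.21, or 1.61-fold (adjusted p = 0.0323). The second Anxa3 probe gave 0.76 ± 0.22 (adjusted p = 0.0313). The Anxa3 call was lost on leaving out any 1 of 5 of the 6 arrays (adjusted p = 0.0551 to 0.124), chronic T3 replicate 3 being the exception, while Cd14 was called on leaving out any of the 6.

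Of 16 macrophage and Kupffer cell markers tested, 14 rose in chronic T3 livers (87.5%, against 12.4% of all genes). Among them, Folr2 rose by 2.26, C1qb by 1.92 and Lyz2 by 1.62 (adjusted p = 8.7e-06, 0.000123 and 0.000145). The summed normalized signal of the 16 markers was 29088 to 48701 in chronic T3 livers and 14964 to 20699 in baseline B livers. Chronic T3 replicate 1 was highest and replicate 3 lowest in this sum, in Cd14 and in Anxa3. The same order held for mean raw signal (649, 438 and 435) and for probes detected (14624, 13301 and 12328) on chronic T3 replicates 1 to 3. The part of array brightness in these levels was not tested. In bulk liver RNA, more cells of a type and more RNA per cell cannot be told apart, and the part of the macrophage signal in the differences of Cd14, Anxa3 and the other members was not tested. Of 8 monocyte markers listed, 2 were tested: Plac8 rose by 1.60 and Fn1 differed by 0.43 and was not called (adjusted p = 0.00065 and 0.414). Of 10 endothelial markers 4 rose (40%, against 12.4% of all genes). The summed signal of 10 hepatocyte markers was 276836 to 285140 in chronic T3 livers and 285785 to 289266 in baseline B livers. This sum is set mostly by its brightest probes, Ttr among them (15.38 in chronic T3 and 15.32 in baseline B livers), so it can miss changes in dimmer markers. Of the 10, 1 was called, Alb, which was lower.

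**Figure D3:**
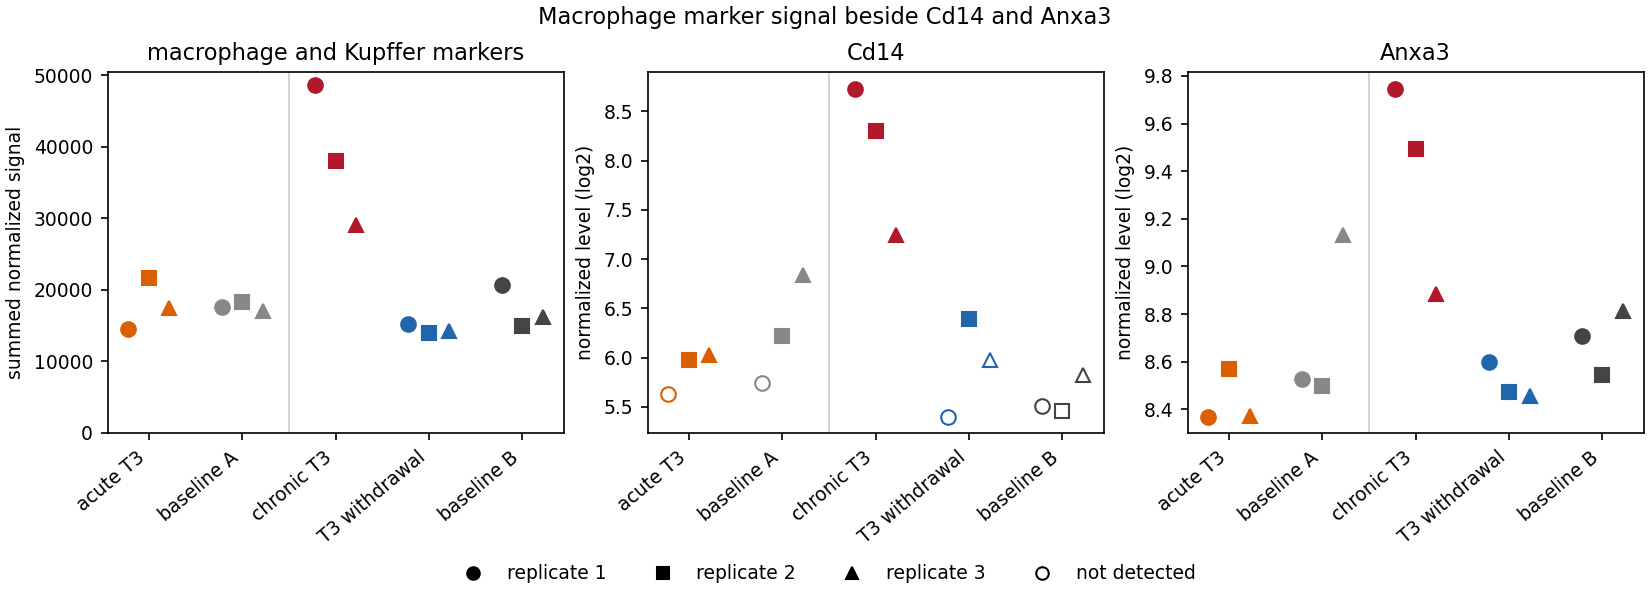
Summed normalized signal of 16 macrophage and Kupffer cell markers (left, y axis from 0) and the normalized log2 levels of Cd14 and Anxa3 (middle and right) on each array, by group (x axis). Open symbols are arrays on which the probe was not detected. The chronic T3 arrays hold the 3 highest marker sums, 29088 to 48701, and the 3 highest Cd14 levels.

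With all groups but chronic T3 and baseline B left out of the fit, 2 of the 6 calls remained, Cd14 and Cxcl1, and Hp, Lcn2, Cp and Anxa3 had adjusted p = 0.0905, 0.0567, 0.0633 and 0.112.

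The other genes of the response were described from lists in chronic T3 livers. Among 18 further positive acute phase genes tested, Fgl1 (0.71 ± 0.23), a fibrinogen-like liver protein, and Apcs (0.62 ± 0.20), serum amyloid P, rose (adjusted p = 0.0388 and 0.0425), 1 was called lower and 15 did not pass. That is 16.7% called, below the 22.9% of all genes. The 1 called lower, Fgb (fibrinogen beta chain), was detected on no array of either group, so that no change of level can be read from it. The median of the 18 genes was 0.21, against 0.025 over all genes. Among 9 negative acute phase genes, which normally decline in inflammation, Serpina6 (corticosteroid-binding globulin) rose by 0.67 (SE 0.23) and Alb (albumin) fell by 1.43 on the log2 scale (SE 0.15), with adjusted p = 0.0496 and 4.59e-05. The other 7 were not called, and the 22.2% called is near the 22.9% of all genes. Alb was read by 1 probe with a raw signal between 208 and 849, while the brighter Hpx probe reached 61912. Whether this dim probe follows the level of albumin RNA was not tested.

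Of 27 cytokine receptor and signalling genes, 5 rose and 2 fell, which is 25.9% against 22.9% of all genes, a share near the background. Tlr2, a receptor for bacterial lipopeptides, rose by 1.37 (SE 0.32), the C/EBP factor Cebpb by 0.87 (SE 0.21), the NF-kappa B cofactor Bcl3 by 1.03 (SE 0.28) and the oncostatin M receptor Osmr by 0.71 (SE 0.19), with adjusted p = 0.0082, 0.00923, 0.0184 and 0.0188. Among 14 further chemokine, cytokine and adhesion genes, 5 rose and 1 fell (42.9%). Ccl6, a chemokine of myeloid cells, was at least 4.29-fold higher, since no baseline B array detected it, Ccl24 (eotaxin-2) rose by 1.76 and Icam1 (an adhesion molecule) by 1.05, while Cxcl12, a chemokine of stromal cells, fell by 0.60 (adjusted p = 1.45e-05, 0.000492, 0.0188 and 0.0129). Cxcl2, Ccl2, Il6, Il1a and Tnf were detected on too few arrays to be tested.

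**Figure D4:**
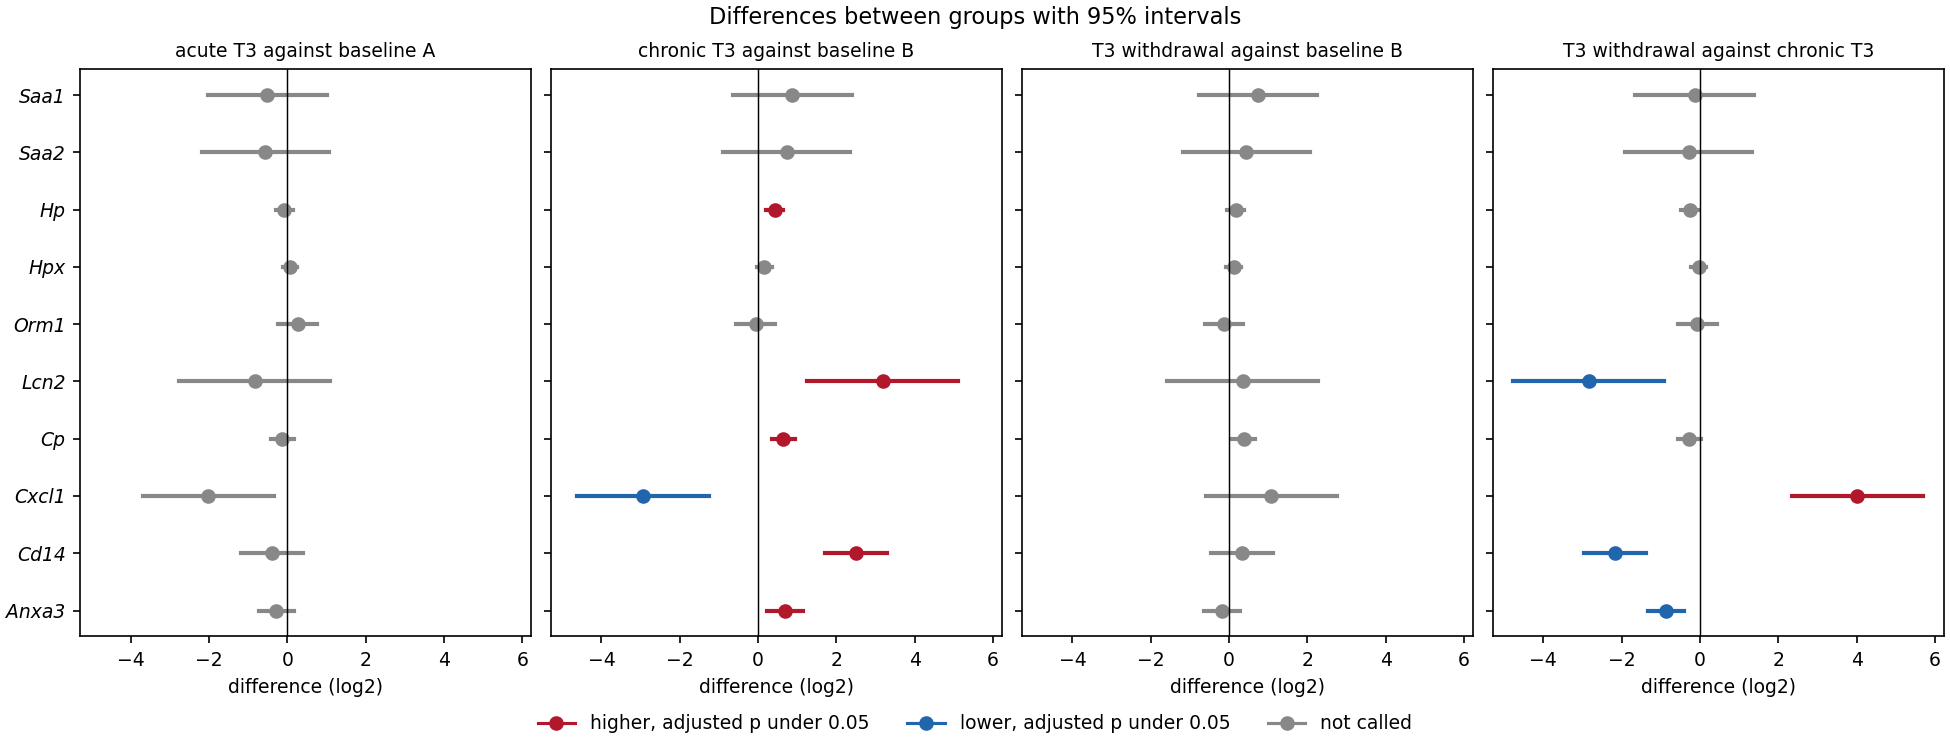
Log2 difference (x axis) of each gene (y axis) in 4 comparisons, with 95% intervals from the fit over 15 arrays (3 per group). Red and blue mark genes with limma adjusted p under 0.05, of which there are 0 in acute T3 against baseline A, 6 in chronic T3 against baseline B, 0 in T3 withdrawal against baseline B and 4 in T3 withdrawal against chronic T3. Cd14 in chronic T3 against baseline B is drawn at its fitted value, though no baseline B array detected it. Cxcl1 was lower in chronic T3 livers than in baseline B and higher in T3 withdrawal livers than in chronic T3 livers.

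At 6 h after 1 injection no member passed the test. None of the 10 was called in acute T3 livers against baseline A, where limma called 2.12% of all genes, and 1 of them, Cxcl1, had an unadjusted p under 0.05. The median of the members was -0.34, against -0.0026 over all genes, and 8 of the 10 differences were below 0. Baseline A replicate 3 was the highest of its group in 9 of the 10 members. Without it Saa1, Saa2 and Lcn2 were above 0, Cd14 was -0.10 and Anxa3 -0.08, while Cxcl1 stayed lower at -1.46. By the brightest probe of each gene, in no member were the 2 groups free of overlap, which held for 21.9% of all genes. On Cp's dimmer probes the groups were free of overlap, with differences of -0.65, -0.87 and 0.20. None of these was called (adjusted p = 0.108, 0.0785 and 0.554 with each probe tested).

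Cxcl1 read 8.21, 9.15 and 7.54 in acute T3 livers, against 9.11, 10.40 and 11.43 in baseline A livers. Acute T3 replicate 2 lay just above baseline A replicate 1, and the other acute T3 arrays were below all baseline A arrays. The difference was -2.01 ± 0.78 (95% interval -3.69 to -0.33), a 4.04-fold lower mean, with adjusted p = 0.232. Cd14 differed by -0.39 ± 0.36, Anxa3 by -0.28 ± 0.21, Cp by -0.13 ± 0.14 and Hp by -0.07 ± 0.10, none called (adjusted p = 0.701, 0.601, 0.76 and 0.822).

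Lcn2 read 6.66, 6.18 and 6.43 in acute T3 livers and 6.16, 6.46 and 9.14 in baseline A livers. The third baseline A array stood far above the other 5, and the difference of -0.83 ± 0.89 turned to 0.11 when it was left out. The same held for Saa1 (-0.51 with it and 0.042 without it) and for Saa2 (-0.56 with it and 0.16 without it), none of them called. Hpx and Orm1 gave 0.07 ± 0.09 and 0.26 ± 0.23.

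Among the pathway genes, Cebpb and Bcl3 rose in acute T3 livers by 1.15 ± 0.21 and 1.46 ± 0.28 (adjusted p = 0.0134 and 0.0188). Alb, by its 1 dim probe, fell by 0.86 on the log2 scale (SE 0.15, adjusted p = 0.0134). None of 18 further positive acute phase genes was called (limma, 1 with an unadjusted p under 0.05), nor any of 14 chemokine, cytokine and adhesion genes (0 with an unadjusted p under 0.05). Of the 16 macrophage markers none was called (1 with an unadjusted p under 0.05), and their summed signal was 14564 to 21664 in acute T3 livers and 17033 to 18266 in baseline A livers.

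The chronic effect (chronic T3 minus baseline B) was set against the acute effect (acute T3 minus baseline A) in a test of the difference itself. Cd14 and Cp differed: the chronic effect on Cp was 0.64 and the acute effect -0.13, a difference of 0.77 ± 0.20 (adjusted p = 0.0335). For Cd14, which no baseline B array detected, bounds were taken under the main background correction. The chronic effect was at least 1.64 and the acute effect -0.39, a difference of at least 2.03 with baseline B at its bound. The fit, taking the undetected signals as levels, gave 2.89 (adjusted p = 0.0062). Cd14 and Cp are 2 of 10 members, both with a higher chronic effect, against 7.14% of all genes (3.82% with a higher chronic effect). The Cp call rested on a narrow margin and was lost on leaving out any 1 of 9 of the 12 arrays (adjusted p = 0.0515 to 0.08). With each probe tested, the other 3 Cp probes gave 0.08, 0.84 and 1.82 (adjusted p = 0.847, 0.0821 and 0.0071), so that 1 of them gave a value near 0, and the dimmest, not detected on 2 of 3 baseline B arrays, was called. Lcn2, with effects of 3.18 and -0.83, differed by 4.01 ± 1.26 (adjusted p = 0.0742), Anxa3 by 0.97 ± 0.30 (adjusted p = 0.0668) and Hp by 0.50 ± 0.14 (adjusted p = 0.0512), and these did not pass. For Cxcl1, lower on average in both, the difference was -0.92 ± 1.10 (95% interval -3.30 to 1.45), so that neither a larger nor a smaller chronic effect can be read. On the dimmer Hpx probe the difference was 1.01 (adjusted p = 0.0232). Of the macrophage markers, 11 of 16 had a larger chronic effect in the same test.

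At 10 days after the last injection no member differed from baseline B by the test. Limma called 0 of the 10 members, 1 of which (Cp) had an unadjusted p under 0.05, and 0.0111% of all genes. The median of the members was 0.34, against 0.031 over all genes. On their brightest probes, Hp, Hpx and Cp were higher on every T3 withdrawal array than on every baseline B array, which is 3 of 10 members against 9.17% of all genes higher and 14.5% in either direction. On all 6 other probes of these 3 genes the groups overlapped.

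Cp read 14.25, 14.10 and 14.00 in T3 withdrawal livers, against 13.80, 13.80 and 13.61 in baseline B livers, a difference of 0.37 ± 0.14 (adjusted p = 0.554). Hp read 15.19, 15.23 and 15.15 in T3 withdrawal livers against 15.06, 15.10 and 14.90 in baseline B livers, a difference of 0.17 ± 0.10 (adjusted p = 0.788). With arrays scaled by their medians the Hp and Hpx differences turned to -0.12 and -0.28, both not called.

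The T3 withdrawal group held 1 array that stood apart in several members. Cxcl1 read 10.68, 13.35 and 10.66 in T3 withdrawal livers, against 10.37, 10.39 and 10.67 in baseline B livers, and its difference of 1.08 ± 0.78 (adjusted p = 0.812) was 0.19 without T3 withdrawal replicate 2. In raw signal Cxcl1 was 12748 on that array and 2048 and 1958 on the other arrays of its group. Saa1 read 11.94, 14.29 and 11.27 in T3 withdrawal livers, and the difference from baseline B of 0.74 ± 0.70 turned to -0.16 without replicate 2. Saa2 and Lcn2 behaved alike, with 0.44 and 0.35 over all arrays and -0.36 and -0.35 without that array, none called.

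Against chronic T3, whose arrays this comparison shares with the one above, T3 withdrawal livers had higher Cxcl1 and lower Lcn2, Cd14 and Anxa3. These were 4 of 10 members, against 17.1% of all genes (8.82% higher and 8.31% lower). The 2 groups did not overlap in 5 members, those 4 and the brightest Hp probe, against 32.9% of all genes (17.6% higher and 15.3% lower). On the other 2 Hp probes they overlapped. Cxcl1 was higher by 4.02 ± 0.78, a 16.3-fold difference of means (adjusted p = 0.0038), and by 3.13 without T3 withdrawal replicate 2.

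Cd14 read 5.40, 6.40 and 5.98 in T3 withdrawal livers, the second array alone detecting it, against 8.73, 8.30 and 7.24 in chronic T3 livers. It was lower on all T3 withdrawal arrays, with a difference of -2.17 ± 0.36 (adjusted p = 0.00145). Anxa3 read 8.60, 8.47 and 8.46 in T3 withdrawal livers against 9.75, 9.49 and 8.88 in chronic T3 livers, a difference of -0.86 ± 0.21 (adjusted p = 0.013). Lcn2 read 6.51, 8.38 and 6.07 in T3 withdrawal livers against 11.82, 9.25 and 8.41 in chronic T3 livers. Its highest T3 withdrawal array nearly reached its lowest chronic T3 array, and the difference of -2.84 ± 0.89 passed narrowly (adjusted p = 0.0446). The Lcn2 call was lost on leaving out chronic T3 replicate 1 or 2 or T3 withdrawal replicate 1 or 3 (adjusted p = 0.161, 0.0653, 0.13 and 0.148), and without chronic T3 replicate 1 the difference was -1.84.

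Hp and Cp lay between baseline B and chronic T3, with differences from chronic T3 of -0.26 ± 0.10 and -0.27 ± 0.14 (adjusted p = 0.0961 and 0.213). Saa1, Saa2, Orm1 and the brighter Hpx probe gave -0.13, -0.28, -0.07 and -0.03, none called. Of the macrophage markers 15 of 16 fell in T3 withdrawal against chronic T3 livers, and their summed signal was 13962 to 15238 in T3 withdrawal livers. Cebpb and Tlr2 differed by -0.91 and -1.06, and Ccl6 and Ccl24 were at least 5.37-fold and 3.12-fold lower (adjusted p = 0.00937, 0.036, 1.3e-05 and 0.000336). Alb, by its 1 dim probe, rose by 1.34, Il1rap by 1.17, Itih3 by 0.74 and Selp by 0.64 (adjusted p = 9.97e-05, 0.0313, 0.0217 and 0.0273). Fgb, undetected in chronic T3 livers, was at least 1.30-fold higher (adjusted p = 0.000749). Called were 11.1% of 18 further positive acute phase genes (2 up, 0 down) and 14.8% of 27 signalling genes (1 up, 3 down). Of 14 chemokine, cytokine and adhesion genes 28.6% were called (1 up, 3 down), against 17.1% of all genes. With only T3 withdrawal and chronic T3 arrays in the fit, 2 of the 4 member calls, Cxcl1 and Cd14, remained.

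Since the chronic and acute effects use different baselines, baseline B was also set against baseline A. No member was called by limma (2, Hp and Cp, had an unadjusted p under 0.05), against 8.71% of all genes. In 4 of 10 members the 2 baselines did not overlap, against 29.9% of all genes: Cp, Hp and Hpx by their brightest probes were lower on all baseline B arrays and Orm1 higher. Cp differed by -0.42 ± 0.14 (adjusted p = 0.0756), Hp by -0.27 ± 0.10 (adjusted p = 0.1), Hpx by -0.09 ± 0.09 (adjusted p = 0.494) and Orm1 by 0.43 ± 0.23 (adjusted p = 0.226). Cd14, with overlapping baselines, gave a fitted -0.67 ± 0.36 (adjusted p = 0.231), and no baseline B array detected it. The probes of a gene did not go 1 way here. The other 2 Hp probes gave 0.35 and 0.41 (adjusted p = 0.512 and 0.408 with each probe tested), and the other 3 Cp probes 0.24, -0.32 and -1.41, the last, on the dimmest probe, called (adjusted p = 0.193, 0.253 and 0.00437). The dimmer Hpx probe gave -0.49 (adjusted p = 0.0667). By its brightest probe Cp averaged 13.74 ± 0.11 in baseline B and 14.16 ± 0.12 in baseline A (SD, n = 3 each), beside a chronic effect of 0.64. Stat3, the main transducer of interleukin-6, was lower in baseline B by -0.81 ± 0.18 and Cebpa higher by 1.10 ± 0.31 (adjusted p = 0.0202 and 0.0464). The T3-responsive lipogenic gene Thrsp also separated the baselines, with baseline B above baseline A by 3.09 (adjusted p = 0.000351).

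The order of the 5 groups differed between members. Cd14 averaged 8.09 ± 0.76 in chronic T3, 5.88 ± 0.22 in acute T3, 5.92 ± 0.50 in T3 withdrawal, 6.27 ± 0.55 in baseline A and 5.59 ± 0.20 in baseline B livers (SD, n = 3 each), and every chronic T3 array was above all others, which overlapped with their neighbours. Lcn2 averaged 9.82 ± 1.78 in chronic T3, 6.42 ± 0.24 in acute T3, 6.99 ± 1.23 in T3 withdrawal, 7.25 ± 1.64 in baseline A and 6.64 ± 0.59 in baseline B livers. Baseline A replicate 3, at 9.14, stood within the range of the chronic T3 arrays. Cxcl1 averaged 7.54 ± 1.20 in chronic T3, 8.30 ± 0.81 in acute T3, 11.56 ± 1.55 in T3 withdrawal, 10.31 ± 1.16 in baseline A and 10.48 ± 0.17 in baseline B livers. From high to low this put T3 withdrawal first, then baseline B, baseline A, acute T3 and chronic T3, and each group overlapped its neighbour in that order. Saa1 averaged 12.63 ± 0.80 in chronic T3, 11.49 ± 0.64 in acute T3, 12.50 ± 1.59 in T3 withdrawal, 12.00 ± 1.09 in baseline A and 11.76 ± 0.16 in baseline B livers, and its neighbouring groups overlapped throughout.

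Spread between arrays of a group was wide in 4 members. Lcn2, Cxcl1, Saa2 and Saa1 had pooled SDs of 1.25, 1.08, 1.05 and 0.98 on the log2 scale, larger than those of 99.9%, 99.7%, 99.7% and 99.5% of the 8976 genes, whose median was 0.23. Cd14 had 0.49, Orm1 0.30, Anxa3 0.27 and Cp 0.16. The dimmer Hp and Hpx probes had a wider spread than the brightest ones, given above. It was 0.44 and 0.47 for Hp, above that median, and 0.19 for Hpx, below it. Single arrays stood high or low in many members at once. Chronic T3 replicate 1, T3 withdrawal replicate 2 and baseline A replicate 3 were each the highest of their group on 12 of the 18 probes. Chronic T3 replicate 3 was the lowest of its group on 14 probes and T3 withdrawal replicate 3 on 13. Several probes of 1 gene count separately here, and no such count over all probes is given. Baseline A replicate 3 was also the lowest of its group on 5 probes, among them both dimmer Hp probes (12.97 and 12.86, against 13.35 and 14.24, and 13.41 and 14.27, on the other arrays of its group).

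Baseline A replicate 3 exceeded the mean of the other 2 arrays of its group by 1.64 in Saa1, 2.17 in Saa2, 2.83 in Lcn2 and 1.67 in Cxcl1. T3 withdrawal replicate 2 exceeded its group by 2.69, 2.41, 2.10 and 2.69 in the same genes. Chronic T3 replicate 1 exceeded its group by 1.01, 1.25, 2.99 and 0.86, and no baseline B array exceeded its group by more than 0.82 in any of the 4. Chronic T3 replicate 3 departed downward from its group, by -1.32, -1.88, -2.13 and -2.07. The macrophage marker sums of baseline A replicate 3 and T3 withdrawal replicate 2, 17033 and 13962, were the lowest of their groups, and their sums of S100a8 and S100a9, 253 and 548, the highest. The part of these marker signals in the high levels was not tested. With these 2 arrays left out together, a choice made after seeing the data, 0 members were called in acute T3 against baseline A and in T3 withdrawal against baseline B, as with them.

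**Figure D5:**
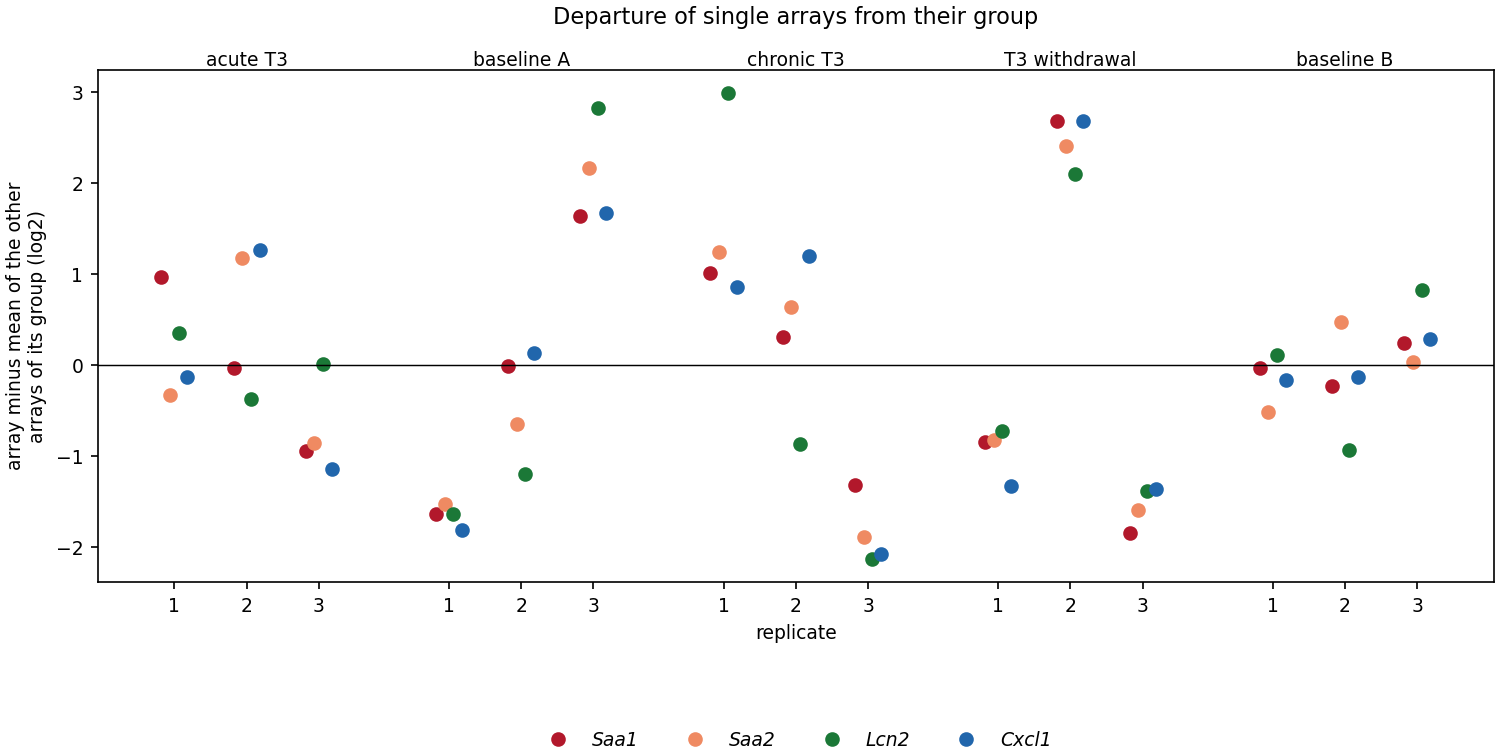
Level of each array minus the mean of the other 2 arrays of its group (y axis, log2) for the 4 members with the widest spread, by group and replicate (x axis). Saa1, Saa2, Lcn2 and Cxcl1 all lie above 1.6 on baseline A replicate 3 and above 2 on T3 withdrawal replicate 2, and Lcn2 reaches 2.99 on chronic T3 replicate 1.

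For the called members, the genes with the closest pattern over the 15 arrays were found by the root mean square difference of log2 levels, each gene centred on its mean. Cd14 was nearest to Ifi27l2a (0.30) and Lyz1 (0.34), a lysozyme of myeloid cells, against its own SD over the arrays of 1.02. Anxa3 was nearest to Slc11a1 (0.14), a metal transporter of macrophages, and Cd53 (0.18), a leukocyte membrane protein, against an SD of 0.41. Lcn2 was nearest to Cd14 (0.82) and Uhrf1 (0.85) and Cxcl1 to the immediate early gene Junb (1.11) and Socs3 (1.16), against SDs of 1.65 and 1.79. Cp was nearest to Necap2 and to Hp (0.13 each, SD 0.25), and Hp to Atp5mpl (0.081) and Cops9 (0.093, SD 0.16).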

How the data were processed

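Mouse liver RNA was labelled with biotin and read on 15 Illumina arrays, 1 per sample. The authors deposited, per the file headers, a linear intensity per probe and array, not normalized, with a detection p-value, and a second table of intensity values quantile-normalized by the authors, used as an alternative. Partek 6.6 is named in the submitters' processing notes with no role, and background handling by the authors is not given in the sources used here.

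Background correction from the detection p-values, quantile normalization and log2 used neqc of limma 3.58.1 (offset 16, R 4.3.3). Probes with a detection p-value under 0.01 on at least 3 arrays were kept (15361), and each gene was read from its kept probe of highest mean. Probe names came from GEO's platform annotation, updated through RefSeq by gene number for 34807 probes; 34885 probes had 1 gene, 18 several and 10378 none. One limma fit held all 15 arrays and estimated the 5 group means (degrees of freedom 10, or 13.1 after moderation; 6 comparisons, Benjamini-Hochberg over 8976 genes). The fit was tested on simulated data. Promoter windows were compared by global alignment with Biopython 1.88.

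The members, gene lists, tests and naming rule were chosen with earlier results of these data known. All members were named in every comparison, with the genes of smallest adjusted p from each list. Alternatives changed the background correction, scaling, filter, probe rule, arrays fitted, array weights and replicate block. No slide or scan batch is named, so none was tested. Deviations of same-numbered arrays from their groups correlated at -0.28 to -0.0041 in the acute and -0.20 to 0.12 in the chronic comparison. They correlated at 0.0053 to 0.065 in withdrawal against baseline B and -0.045 to 0.24 in withdrawal against chronic T3. Between the 2 baselines the correlations were 0.13 to 0.25. Arrays of this number limit the precision, and correlated at r = 0.901 to 0.991.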

Additional observations from a re-analysis of the deposited data

Results flagged for a closer look

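The chronic and the acute effect of T3 differed in 2 members by the test of the difference itself (limma, adjusted over all genes). For Cd14 the fit gave a chronic effect above the acute effect by 2.89 on the log2 scale (adjusted p = 0.0062). No baseline B array detected Cd14, so the size is only bounded under the main background correction, at 2.03 or more with baseline B at its bound. That bound takes the acute effect as fitted, though Cd14 was detected on only 2 of 3 acute T3 and 2 of 3 baseline A arrays. Cd14 was higher on 3 of 3 chronic T3 arrays than on any baseline B array and overlapped in acute T3 against baseline A. Between the baselines Cd14 was lower in baseline B by a fitted difference of -0.67 (limma adjusted p = 0.231). It was detected on 0 of 3 baseline B and 2 of 3 baseline A arrays. The part of that gap between the baselines in the Cd14 result was not tested. The chronic minus acute difference was called under every alternative. Its fitted size was at most 3.31 over them, and was 1.63 on the authors' deposited values and lower still without background correction.

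For Cp the chronic effect exceeded the acute effect by 0.77 (adjusted p = 0.0335), with Cp higher on 3 of 3 chronic T3 arrays than on any baseline B array. These values are of its brightest probe; the other 3 gave 0.08, 0.84 and 1.82 (adjusted p = 0.847, 0.0821 and 0.0071 with each probe tested), so 1 probe gave a value near 0. Over the alternatives its adjusted p was 0.0097 to 0.098, and baseline B itself was lower than baseline A by a difference of -0.42. The part of that gap between the baselines in the Cp result was not tested.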

How the results depend on the processing

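Directions and calls of single members were recomputed under every alternative: 1043 values kept direction and side of the threshold, 41 lost a call, 12 gained one and 44 changed sign, none of these 44 called in either setting. Cd14 stayed called in both comparisons with chronic T3, and Cxcl1 in T3 withdrawal against chronic T3, under every alternative run.

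With only the compared groups fitted, 2 members were called in chronic T3 against baseline B, 2 in T3 withdrawal against chronic T3 and 1 in the chronic minus acute difference, and 93, 898, 0, 802 and 185 genes in the acute, chronic, withdrawal, withdrawal against chronic and baseline comparisons, against 190, 2052, 1, 1538 and 782. The chronic minus acute count of members was 4 without background correction and 1 under median scaling, without a filter, or with 2 high arrays left out. Baseline B against baseline A gave 1 member (Cp) by the mean of probes. Genes called after acute T3 numbered 297 without background correction, 295 on the authors' values, 109 without a filter and 65 with array weights. T3 withdrawal against baseline B gave 3 genes with array weights and 0 with 2 arrays left out. The baselines gave 501 without a filter, 79 with array weights and 182 with 2 arrays left out, where the chronic minus acute difference gave 351.

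Leaving out 1 array at a time gave 1 to 5 members and 311 to 916 genes for the chronic minus acute difference, 48 to 164 genes after acute T3, 1 to 4 after withdrawal against baseline B, and 0 to 1 members and 128 to 1717 genes between the baselines. It gave 4 to 5 members in chronic T3 against baseline B and 3 to 4 in T3 withdrawal against chronic T3. Members that changed sign ranged as follows: after acute T3, Saa1 -1.05 to 0.042, Saa2 -1.07 to 0.16 and Lcn2 -1.37 to 0.11; in chronic T3 against baseline B, Orm1 -0.21 to 0.17; in T3 withdrawal against baseline B, Saa1 -0.16 to 1.36, Saa2 -0.36 to 0.97, Lcn2 -0.35 to 0.81 and Orm1 -0.30 to 0.0027. In T3 withdrawal against chronic T3 they were Saa1 -1.03 to 0.48, Saa2 -1.09 to 0.24 and Orm1 -0.31 to 0.081. In baseline B against baseline A they were Saa1 -0.78 to 0.31, Saa2 -0.71 to 0.53, Lcn2 -1.16 to 0.33, Cxcl1 -0.44 to 0.72 and Anxa3 -0.14 to 0.18.

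Median scaling turned Hp to -0.12 and Hpx to -0.28 in T3 withdrawal against baseline B, Saa1 to 0.068 and Orm1 to 0.023 against chronic T3, and Hpx to 0.18 between the baselines. It also moved the share of higher among called genes to 42.4% (54.1% under quantile normalization) in chronic T3 against baseline B, to 42.3% (53.5%) in the chronic minus acute difference and to 49.5% (31.3%) in baseline B against baseline A. The mean of probes turned Hp to 0.038 and Hpx to -0.064 after acute T3, and Hp to 0.16 and Anxa3 to 0.017 between the baselines, and Hpx then rose in chronic T3 livers by 0.48 (adjusted p = 0.00774). Array weights turned Saa1 to 0.12 against chronic T3 and Cxcl1 to -0.45 between the baselines. The 2 arrays with high Saa1, Saa2 and Lcn2 left out together, chosen after seeing the data, gave Saa1 0.042, Saa2 0.16 and Lcn2 0.11 after acute T3, -0.16, -0.36 and -0.35 after withdrawal against baseline B, and 0.31, 0.53 and 0.33 between the baselines, with Anxa3 at 0.18 there. Fewer arrays enter the fits that leave arrays or groups out; the cause of the other changes was not tested.

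With replicate number as a block, 5 members were called in chronic T3 against baseline B (Anxa3 lost, adjusted p = 0.0519) and 3 in T3 withdrawal against chronic T3 (Lcn2 lost, adjusted p = 0.0698). The block gave 154, 1896, 1, 1440, 569 and 659 genes in the acute, chronic, withdrawal, withdrawal against chronic, chronic minus acute and baseline comparisons, and changed no other call of a member. No label says that same-numbered arrays share more than a number. Detection limits the low end: Saa2 was detected on 9 and Cd14 on 8 of 15 arrays, so their low levels are near background.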
